A study of Bos indicus with 6 samples.

Results

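The genes described here are the ligands and receptors of vascular endothelial growth factor (VEGF) and angiopoietin signalling, namely the ligands VEGFA, VEGFB, VEGFC and FIGF (also called VEGFD), the VEGF receptors FLT1, KDR and FLT4, the angiopoietins ANGPT1 and ANGPT2, and the angiopoietin receptor TEK. They were found by symbol in the deposited isthmus values, and each of the 10 was found once among the 24616 genes listed. The isthmus, the narrow segment of the oviduct next to the uterus, was taken over its full wall thickness on day 4 after the GnRH injection, from the side of the corpus luteum (CL), and gave 1 RNA-seq library per cow. The 6 animals were multiparous Nelore (Bos indicus) cows, 3 with a large ovulatory follicle and large CL (LF/LCL, cows 617, 79 and 527) and 3 with a small follicle and small CL (SF/SCL, cows 856, 489215 and 97). All cows were presynchronised with prostaglandin F2 alpha (PGF) and GnRH, and later received an intravaginal device with 1 g of progesterone together with 2 mg of estradiol benzoate. The LF/LCL cows alone also received PGF when the device was inserted. The device was removed 42 h before GnRH in LF/LCL and 30 h before GnRH in SF/SCL, with PGF in both groups at removal and again some hours later, and ovulation was induced with GnRH. Sequenced cows had been ranked first within LF/LCL and last within SF/SCL, so they are the extremes of the model and not a random draw from it.

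Blood vessels and lymphatics grow and remodel in the reproductive tract over the ovarian cycle, and VEGF and angiopoietins are the main ligand families that act on their endothelium. VEGFA binds KDR, the chief signalling receptor of blood endothelium, and FLT1, which holds VEGFA tightly but signals weakly and is also made in a soluble form. VEGFB binds FLT1, and VEGFC and FIGF bind FLT4, the receptor of lymphatic endothelium, and also KDR once they are cut to their mature form. ANGPT1, made mostly by cells around the vessel, activates TEK and keeps vessels stable, whereas ANGPT2, made by endothelium itself, competes with it for TEK and acts as an antagonist or a weak agonist according to context.

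The values are normalized counts, meaning reads per gene divided by a size factor for each library. Reads numbered 25652651, 28659214 and 29836083 for cows 617, 79 and 527 (LF/LCL) and 34193164, 25472906 and 23899117 for cows 856, 489215 and 97 (SF/SCL). Fold changes are differences of the mean log2(normalized count + 1), SF/SCL minus LF/LCL, so that a negative value is lower in SF/SCL, and the added 1 understates the change of genes with few reads. Differences were tested with limma over the 15387 genes whose mean over the 6 cows exceeded 5 and exceeded the SD, a filter that all 10 genes passed, and p-values were adjusted over all genes tested. Gene lengths were not used, so levels are compared between cows and not between genes. A gene called the most abundant of a list, or said to lead it, has the highest mean normalized count without regard to length.

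Cow 489215 stood apart from the other SF/SCL cows. Among the 15387 genes tested it held the lowest of the 6 values for 35.7% and the highest for 36.7%, against 8.61% to 18.7% and 6.97% to 19.3% in the other cows. It also had the smallest size factor, 0.751, and the fewest genes with a read, 16944, where the other cows had 17348 to 17718. The 10 genes and the lists of their pathway are therefore described with all 6 cows and again without cow 489215, which was singled out after its values were seen, and other genes where stated. The study judged the RNA of all samples suitable for sequencing. By its read counts, the share of mapped reads that mapped uniquely was lowest in this cow. FIGF, PLAT, ENG and EPCAM, given below, lay with the other SF/SCL cows in it. The groups did not overlap for these genes, which places this cow with SF/SCL by definition, so they cannot test its label. OVGP1 and ESM1 lay within the LF/LCL range in it. Its mesothelial marker sum was 3483, near LF/LCL (2452 to 3314) and far from the other SF/SCL cows (26249 and 26728). Its ciliated-cell marker sum, 9055, was below LF/LCL (12600 to 15292), where the other SF/SCL cows were above (31524 and 33192). Its fibroblast marker sum, 207425, was below LF/LCL, as in the other SF/SCL cows. Whether the tissue piece, the label or the library of this cow is at issue could not be checked further here, and the doubt bears on every SF/SCL mean given with it.

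The cell makeup of the pieces also differed between cows by marker genes. The 6 smooth muscle markers tested summed to 810502, 737507 and 689337 normalized counts in LF/LCL cows 617, 79 and 527, to 314026 and 378579 in SF/SCL cows 856 and 97, and to 1193581 in cow 489215, with ACTA2 as the most abundant, and MYH11 alone had groups that did not overlap (log2 fold change -0.60, limma adjusted p = 0.635; 8.60% of all genes did not overlap with lower values in SF/SCL). Their median log2 fold change was -0.54, and -1.08 without cow 489215. The 7 secretory and general epithelial markers summed to 25821 to 36824 in LF/LCL, to 56378 in cow 489215, and to 312059 and 373019 in cows 856 and 97. Most of the latter was OVGP1, the oviductal glycoprotein, with 271794 and 325158 normalized counts in cows 856 and 97, 730 in cow 489215, and 287, 1782 and 1950 in the LF/LCL cows. OVGP1 was left out of the test by the filter, because its SD exceeded its mean. EPCAM, an adhesion molecule of all epithelia, was higher in each SF/SCL cow, with 15871, 20313 and 18854 against 12286, 9925 and 8530 (log2 fold change 0.85, SE 0.22, limma adjusted p = 0.398). KRT8 (0.76) and KRT18 (0.54) did not overlap between the groups either (9.51% of all genes did not overlap with higher values in SF/SCL). Among 8 ciliated-cell markers, led by FOXJ1, the sums were 12600 to 15292 in LF/LCL, 31524 and 33192 in cows 856 and 97, and 9055 in cow 489215. DNAI1 (log2 fold change 1.19) and CCDC39 (0.82) had values that did not overlap (9.51% of all genes, higher in SF/SCL), and PIFO was at 0 reads in every cow. With all cows, 3 of 6 secretory and general epithelial markers and 2 of 7 ciliated-cell markers were higher at an unadjusted p under 0.05 (4.19% of all genes). In both lists 0 were lower. Without cow 489215, where limma called 7.92% of all genes lower and 10.3% higher at an adjusted p under 0.05, it called 5 of 6 smooth muscle markers lower, 3 of 6 secretory and general epithelial markers higher, and 7 of 7 ciliated-cell markers higher.

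Stromal markers went the other way. All 6 fibroblast markers had lower means in SF/SCL, 4 of them at an unadjusted p under 0.05 (4.48% of all genes tested were called lower), and their sums were 289547, 360441 and 352671 in LF/LCL cows 617, 79 and 527 against 149134, 207425 and 155220 in SF/SCL cows 856, 489215 and 97. COL3A1, a fibrillar collagen and the most abundant of them, had a log2 fold change of -1.06 (SE 0.24, limma adjusted p = 0.372) and COL1A1 -1.14. COL3A1, COL1A1 and LUM did not overlap between the groups (8.60% of all genes, lower in SF/SCL). Mesothelial markers, led by MSLN, summed to 26249 and 26728 in cows 856 and 97, 3483 in cow 489215, and 2452 to 3314 in LF/LCL. The filter left out all 5 mesothelial markers, so 0 were tested. The 6 leukocyte markers, led by PTPRC, summed to 1446 to 2534 in LF/LCL and 1532 to 1973 in SF/SCL, with 0 of 6 at an unadjusted p under 0.05 (8.66% of all genes tested). Erythrocyte genes were near 0, with a sum of at most 25.3 normalized counts led by AHSP, and so were adipocyte genes, led by FABP4, with a sum of at most 74.6. In whole tissue, fewer cells of a type and less RNA per cell cannot be told apart, and the part of these markers in the results below was not tested.

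No VEGF or angiopoietin gene passed the threshold between the groups. With all 6 cows, limma called 0 of the 10 genes at an adjusted p under 0.05, as it did 0 (0%) of all 15387 genes tested. At an unadjusted p under 0.05 it called 0 of 10, where 8.66% of all genes tested were called, 4.48% lower and 4.19% higher in SF/SCL. On reads recovered from the values, edgeR called 0 of 10 at an unadjusted p under 0.05 (8.49% of all genes) and 0 genes at the adjusted threshold. DESeq2 called 1 of 10 unadjusted, FIGF (11.5% of all genes), and 0 of 10 adjusted (2.66%). Groups without overlap were seen for 1 of the 10 genes, FIGF, against 18.1% of all genes tested, 8.60% with the lower values in SF/SCL and 9.51% with the higher. The counts were thus at or below the background. By direction, 8 of 10 log2 fold changes were negative and 2 were positive, with a median of -0.36, against -0.02 over all genes tested, and of -0.23 without LF/LCL cow 79.

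Leaving out cow 489215 gave more calls, among the members and among all genes. Without it limma called 0 of 10 genes at an adjusted p under 0.05, where 18.2% of 15495 genes were called (7.92% lower and 10.3% higher in SF/SCL), and 3 of 10, namely VEGFC, FIGF and ANGPT2, at an unadjusted p under 0.05, where 33.9% were. The groups then did not overlap for 4 of 10 (FIGF, VEGFC, ANGPT2 and TEK) against 52.0% of all genes. Array weights in limma, 0.0477 for cow 489215 and 1.06 to 4.26 for the others, gave 4 of 10 at the adjusted threshold (VEGFC, FIGF, ANGPT2 and TEK, smallest adjusted p 0.0157 for FIGF), against 29.8% of all genes, and 6 of 10 unadjusted, against 42.4%. The estimate of these weights stopped before its tolerance was reached. Leaving out LF/LCL cow 617 gave 1 of 10 at an unadjusted p under 0.05, ANGPT1, against 5.91% of all genes, and 4 of 10 that did not overlap (FIGF, FLT4, ANGPT1 and ANGPT2), against 26.7%. Without LF/LCL cow 527 the groups did not overlap for 2 of 10 (22.7% of all genes), and without SF/SCL cow 97 also for 2 of 10 (24.9%), in both cases FIGF and FLT1. Over all genes, limma called 605 and 663 at an unadjusted p under 0.05 without LF/LCL cows 79 and 527, against 1333 with all cows. Over all alternatives run, adjusted p-values of the 10 genes ranged from 0.0157 to 0.999.

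**Figure D1:**
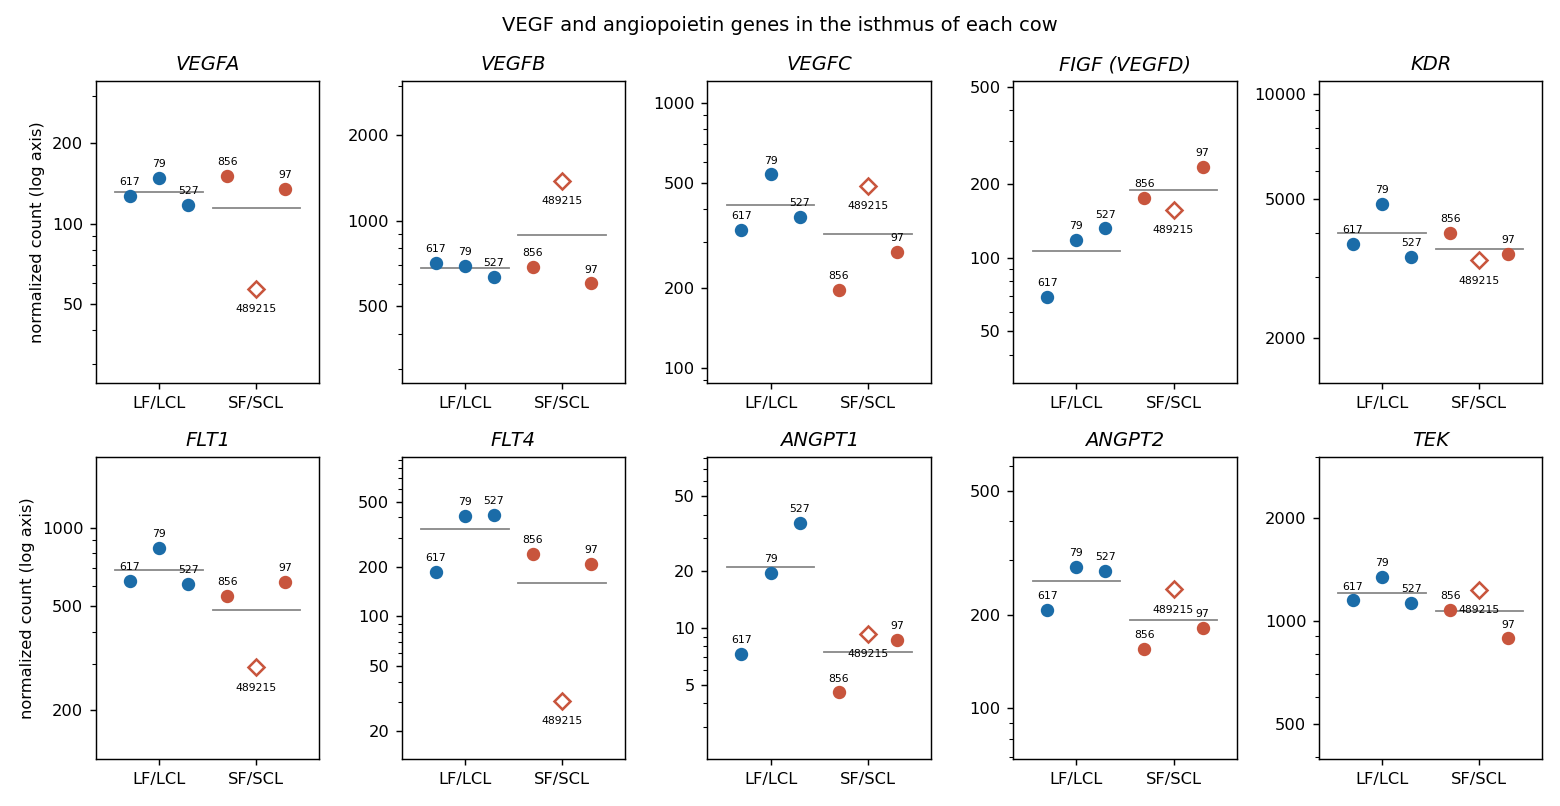
Normalized counts (log axis, a separate range in each panel) of the 10 genes in each cow, with LF/LCL in blue and SF/SCL in red, cow numbers beside the points, cow 489215 as an open diamond and the arithmetic mean of each group as a line. FIGF alone has every SF/SCL cow (157 to 234) above every LF/LCL cow (69.1 to 132), and cow 489215 is the lowest cow for VEGFA, KDR, FLT1 and FLT4 and the highest for VEGFB.

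Of the ligands of blood endothelium, VEGFA (ENSBTAG00000047561) was nearly level between the groups apart from cow 489215. It had 127, 148 and 118 normalized counts in LF/LCL cows 617, 79 and 527 and 151, 57.2 and 134 in SF/SCL cows 856, 489215 and 97. The value of cow 489215 rested on 43 reads, against 121 to 199 in the others. The log2 fold change was -0.30 (95% confidence interval -1.36 to 0.75, limma adjusted p = 0.898), and it turned to 0.13 (-0.41 to 0.66) without cow 489215, against -0.56 without SF/SCL cow 856 and -0.48 without SF/SCL cow 97. VEGFB (ENSBTAG00000047567), the ligand of FLT1 alone, had 710, 696 and 634 in LF/LCL and 689, 1383 and 601 in SF/SCL, so that cow 489215 was far above the rest while the other 5 cows lay within 601 to 710. Its log2 fold change of 0.29 (-0.53 to 1.11, adjusted p = 0.876) turned to -0.08 (-0.38 to 0.22) without that cow, against 0.52 without SF/SCL cow 97. For these ligands cow 489215 thus set the direction of the difference, downward for VEGFA and upward for VEGFB.

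The ligands of FLT4 differed in direction from each other. FIGF (ENSBTAG00000009476) had 69.1, 118 and 132 normalized counts in LF/LCL cows 617, 79 and 527 and 175, 157 and 234 in SF/SCL cows 856, 489215 and 97. Every SF/SCL cow was above every LF/LCL cow, on 66 to 231 reads, and the SF/SCL mean was 189 ± 40.2 against 106 ± 33.0 (SD, n = 3 cows each). This is a log2 fold change of 0.85 (95% confidence interval -0.01 to 1.72), which is 1.81-fold, with a limma adjusted p of 0.591. Without cow 489215 it was 0.98 (0.16 to 1.79, adjusted p = 0.0949), and DESeq2 on the reads of all 6 cows gave an adjusted p of 0.307. Without LF/LCL cow 617, the lowest cow, it was 0.57. The direction differs from the study's discussion, which gives IGF1 as higher in the LF/LCL ampulla and FIGF as higher in the LF/LCL isthmus. The study's table of enriched processes has the regions the other way, with FIGF under the LF/LCL ampulla and IGF1 under the LF/LCL isthmus. The discussion may therefore have exchanged the regions, and whether the study reports FIGF for the isthmus is not clear. VEGFC (ENSBTAG00000014737), the main growth factor of lymphatic vessels, had 332, 539 and 373 in LF/LCL and 197, 489 and 274 in SF/SCL. Cows 856 and 97 lay below all LF/LCL cows, and cow 489215 lay among them. The log2 fold change was -0.44 (-1.39 to 0.51, adjusted p = 0.843) with all cows and -0.80 (-1.42 to -0.17, adjusted p = 0.0812) without cow 489215, but -0.15 without SF/SCL cow 856 and -0.24 without LF/LCL cow 79.

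**Figure D2:**
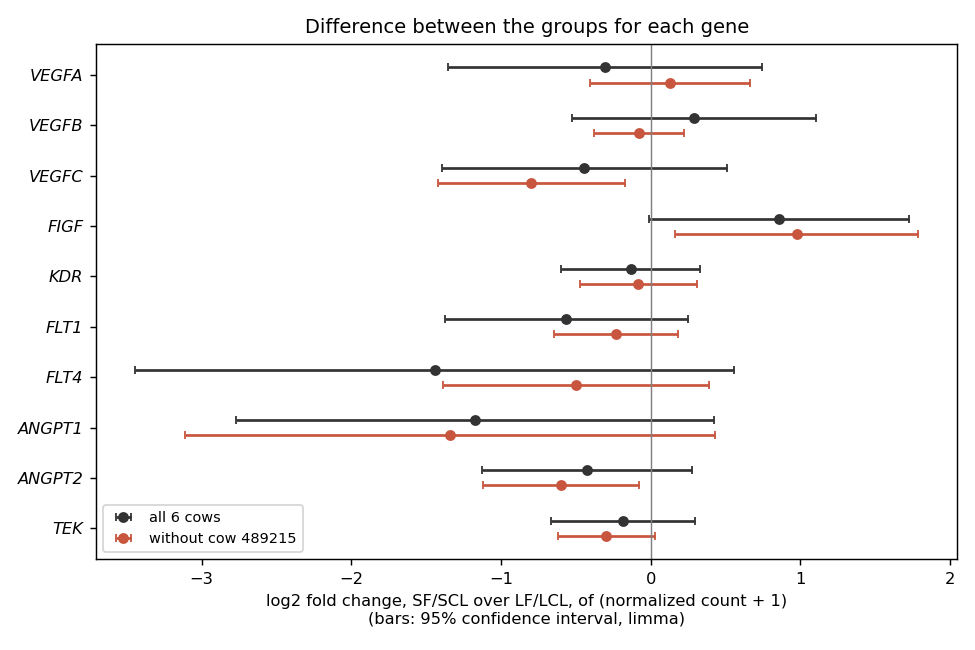
Log2 fold change of each gene, SF/SCL over LF/LCL (horizontal axis), from limma with its 95% confidence interval, with all 6 cows (black) and without SF/SCL cow 489215 (red). With all cows every interval spans 0, and without cow 489215 those of VEGFC (-1.42 to -0.17), FIGF (0.16 to 1.79) and ANGPT2 (-1.12 to -0.08) do not.

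The main VEGF receptor had similar values in the groups. KDR (ENSBTAG00000000782) had 3718, 4836 and 3411 normalized counts in LF/LCL cows 617, 79 and 527 and 3992, 3344 and 3477 in SF/SCL cows 856, 489215 and 97. All SF/SCL values lay within or just under the LF/LCL range, with means of 3988 ± 750 and 3604 ± 342 (SD, n = 3 each). Its log2 fold change came to -0.13 (95% confidence interval -0.60 to 0.33, limma adjusted p = 0.898). It was -0.08 (-0.47 to 0.31) without cow 489215, 0.01 without LF/LCL cow 79, the cow with the highest value, -0.24 without LF/LCL cow 527 and -0.21 without SF/SCL cow 856. FLT1 (ENSBTAG00000016915) had 626, 836 and 612 in LF/LCL and 547, 292 and 619 in SF/SCL, so that only cow 489215 was far from the rest. Its log2 fold change was -0.57 (-1.38 to 0.25, adjusted p = 0.735), and -0.23 (-0.65 to 0.18) without cow 489215.

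FLT4 (ENSBTAG00000001462) had the largest SD of log2 values over the 6 cows among the 10 genes, 1.37, with ANGPT1 next at 0.99. Within LF/LCL alone ANGPT1 varied more, with an SD of 1.08 against 0.66. FLT4 had 187, 411 and 416 normalized counts in LF/LCL cows 617, 79 and 527 and 241, 30.6 and 209 in SF/SCL cows 856, 489215 and 97. Cow 489215, with 23 reads, was lowest in FLT4 by far, cow 617 was next, and cows 79 and 527 were the highest. The SD of the log2 values was 0.66 in LF/LCL and 1.64 in SF/SCL, and 0.14 between cows 856 and 97. The log2 fold change was -1.44 (95% confidence interval -3.44 to 0.56, limma adjusted p = 0.724) with all cows and -0.50 (-1.39 to 0.39, adjusted p = 0.388) without cow 489215.

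Of the markers of lymphatic endothelium, 3 had the order of cows seen in FLT4 at its low end, and 2 did not. Of 6 such markers 5 were analysed, none was at 0, and LYVE1 was the most abundant. They summed to 2217, 4208 and 4550 normalized counts in LF/LCL cows 617, 79 and 527 and to 2967, 1269 and 3220 in SF/SCL cows 856, 489215 and 97. PROX1, MMRN1 and RELN are named after their values were seen. PROX1, the transcription factor that defines lymphatic endothelium, had 78.5, 181 and 184 in LF/LCL and 179, 13.3 and 200 in SF/SCL. MMRN1 had 350, 833 and 1046 in LF/LCL and 941, 43.9 and 775 in SF/SCL, and RELN 539, 1320 and 1358 in LF/LCL and 721, 134 and 719 in SF/SCL. In all 3, as in FLT4, cow 489215 was lowest and cow 617 next. LYVE1 did not follow FLT4, with 591, 1289 and 1242 in LF/LCL and 860, 829 and 1079 in SF/SCL, so that cow 617 was lowest and cow 489215 was level with cow 856. By its profile over the 6 cows, RELN was also among the 3 of all tested genes closest to FLT4, at a root mean square difference of 0.19 in centred log2 values, with ENSBTAG00000004043 (0.14) and ADAMTSL1 (0.18). CCL21, a chemokine of lymphatic endothelium, followed the groups instead, with 658, 585 and 719 in LF/LCL and 266, 248 and 447 in SF/SCL (log2 fold change -1.08, SE 0.29, limma adjusted p = 0.405). It was the only lymphatic marker of the 5 at an unadjusted p under 0.05 or with groups that did not overlap (4.48% and 8.60% of all genes, lower in SF/SCL), and it was -0.92 (adjusted p = 0.0417) without cow 489215. Whether FLT4 differed through the amount of lymphatic tissue in each piece was not tested.

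**Figure D3:**
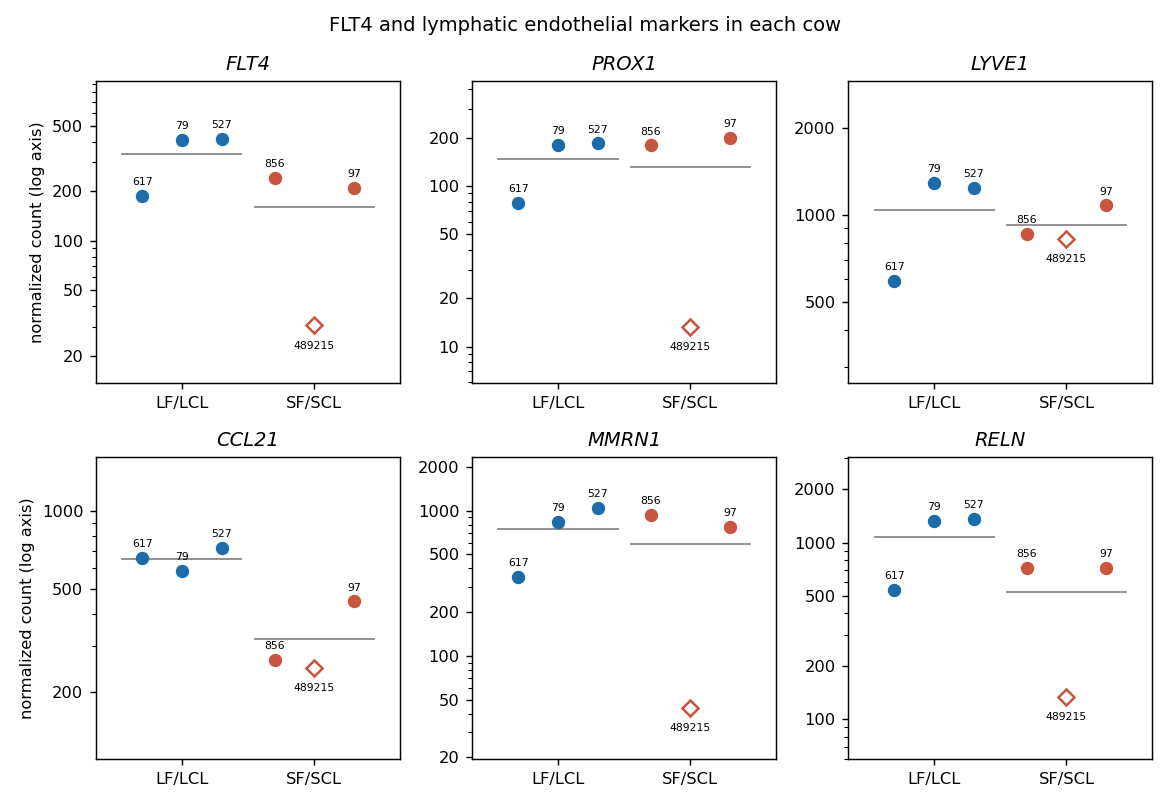
Normalized counts (log axis, a separate range in each panel) of FLT4 and of 5 lymphatic endothelial markers in each cow, with LF/LCL in blue, SF/SCL in red, cow 489215 as an open diamond and arithmetic group means as lines. FLT4, PROX1, MMRN1 and RELN share cow 489215 as the lowest and cow 617 as the next lowest cow, whereas LYVE1 is lowest in cow 617 and CCL21 has all SF/SCL cows (248 to 447) below all LF/LCL cows (585 to 719).

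The angiopoietins had lower means in SF/SCL, within the spread between cows. ANGPT2 (ENSBTAG00000011034) had 207, 285 and 277 normalized counts in LF/LCL cows 617, 79 and 527 and 155, 241 and 181 in SF/SCL cows 856, 489215 and 97. Cows 856 and 97 lay below all LF/LCL cows and cow 489215 lay between cows 617 and 527. That gives a log2 fold change of -0.42 (95% confidence interval -1.12 to 0.28, limma adjusted p = 0.781), and -0.60 (-1.12 to -0.08, adjusted p = 0.107) without cow 489215, but -0.28 without SF/SCL cow 856.

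ANGPT1 (ENSBTAG00000014051) was measured on few reads. Reads numbered 7, 21 and 41 in cows 617, 79 and 527 (LF/LCL) but 6, 7 and 8 in cows 856, 489215 and 97 (SF/SCL), which are 7.33, 19.7 and 36.0 and 4.56, 9.32 and 8.67 normalized counts. The exact 95% Poisson intervals, which cover counting error only, ran from 2.81 to 14.4 reads in cow 617 and from 29.4 to 55.6 in cow 527. In SF/SCL the intervals of all 3 cows overlapped, from 2.20 to 13.1 reads in cow 856 to 3.45 to 15.8 in cow 97. Cow 617 lay within the SF/SCL range and the other LF/LCL cows above it. The log2 fold change was -1.17 (95% confidence interval -2.77 to 0.42, limma adjusted p = 0.712), and it was -1.75 (adjusted p = 0.812) without cow 617, at an unadjusted p under 0.05, but -0.68 without LF/LCL cow 527 and -1.34 without cow 489215. TEK (ENSBTAG00000020148), the receptor of both, had 1146, 1338 and 1125 normalized counts in LF/LCL and 1073, 1230 and 888 in SF/SCL. The spread was small, cow 489215 lay inside the LF/LCL range, and the log2 fold change was -0.19 (-0.67 to 0.30, adjusted p = 0.868) or -0.30 (-0.62 to 0.03, adjusted p = 0.175) without that cow. It was -0.06 without SF/SCL cow 97 and -0.11 without LF/LCL cow 79, but -0.43 (limma adjusted p = 0.0232) with array weights.

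Ratios between a ligand and its receptor, or between receptors, do not depend on the size factors beyond the added count of 1. For each of 8 ratios the difference between the groups was tested with an exact two-sided permutation test, which has 10 distinct divisions of 6 cows into 3 and 3 and cannot give a p below 0.1. None reached that value. The ratio of ANGPT2 to ANGPT1, log2 scale, was 4.64, 3.79 and 2.91 in LF/LCL cows 617, 79 and 527 and 4.81, 4.55 and 4.23 in SF/SCL cows 856, 489215 and 97, a difference of 0.75 (exact permutation p = 0.3, Benjamini-Hochberg adjusted over the 8 ratios p = 0.6). This difference was 0.74 without cow 489215, 1.18 without LF/LCL cow 617 and 0.32 without LF/LCL cow 527. With an added count of 5 in place of 1 it was 0.50. The ratio was spread more widely in LF/LCL than in SF/SCL, and the few ANGPT1 reads limit its precision in both groups. The log2 ratio of FIGF to VEGFC was -2.25, -2.18 and -1.50 in LF/LCL and -0.17, -1.63 and -0.23 in SF/SCL, so that cows 856 and 97 had relatively more FIGF than any LF/LCL cow and cow 489215 did not. The group means were -1.97 and -0.68 (exact permutation p = 0.2, adjusted p = 0.6), and the difference was 1.78 without cow 489215. The log2 ratio of VEGFA to FLT1 was -2.30, -2.49 and -2.37 in LF/LCL and -1.85, -2.33 and -2.19 in SF/SCL, a difference of 0.26 (exact permutation p = 0.2, adjusted p = 0.6) that was 0.36 without cow 489215 and 0.12 without SF/SCL cow 856. That of FLT1 to KDR was nearly the same in the 3 LF/LCL cows, -2.57, -2.53 and -2.48, and ranged over -2.87, -3.52 and -2.49 in SF/SCL, a difference of -0.43 (exact permutation p = 0.3, adjusted p = 0.6) that was -0.15 without cow 489215 and -0.67 without SF/SCL cow 97.

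Endothelial markers bear on how the receptors are read. Of 18 endothelial markers 17 were analysed and tested, none was at 0, and VWF was the most abundant. They summed to 22516, 25646 and 21027 normalized counts in LF/LCL cows 617, 79 and 527 and to 16502, 28165 and 18026 in SF/SCL cows 856, 489215 and 97, so that cow 489215 was highest in the sum and the other SF/SCL cows were lowest. This order did not hold for each marker, and ENG was lowest in cow 489215. Of the 17, 15 had negative log2 fold changes, 2 were lower in SF/SCL and 1 was higher at an unadjusted p under 0.05 (4.48% and 4.19% of all genes), and the median was -0.31, or -0.59 without cow 489215. ENG, a TGF-beta co-receptor of endothelium, had 1506, 1727 and 1556 in LF/LCL and 820, 723 and 984 in SF/SCL (log2 fold change -0.93, SE 0.19, limma adjusted p = 0.367). CDH5, the cadherin of endothelial junctions, had a log2 fold change of -0.87 (adjusted p = 0.437) and CD34 of -0.46, and SOX17, which oviduct epithelium expresses too, of 0.52. All 3 SF/SCL cows were below all LF/LCL cows for ENG, CDH5 and CD34 (8.60% of all genes), and above them for SOX17 (9.51%). Without cow 489215 limma called 8 of the 17 lower at an adjusted p under 0.05 and 0 higher, against the 7.92% and 10.3% of all genes given above.

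Set against a mean of 4 endothelial genes (CDH5, TIE1, ESAM and EMCN), the receptors were compared between the groups by the same exact test, which cannot pass a threshold of 0.05 with these cows. PECAM1, the fifth gene meant for this reference, was not analysed here. The reference genes did not go together in cow 489215. Without that cow the log2 fold change of CDH5 went from -0.87 to -0.61, and that of TIE1 from -0.36 to -0.59. The place of cow 489215 in the ratios below thus rests on which genes are averaged. The reference was 10.02, 10.13 and 9.89 on the log2 scale in LF/LCL cows 617, 79 and 527 and 9.37, 10.16 and 9.51 in SF/SCL cows 856, 489215 and 97. KDR relative to it was 1.84, 2.11 and 1.84 in LF/LCL and 2.59, 1.55 and 2.26 in SF/SCL, a difference of 0.20 (exact permutation p = 0.6, adjusted over the 8 ratios p = 0.686), so cows 856 and 97 were above every LF/LCL cow and cow 489215 below. For FLT1, cows 856 and 97 were again above every LF/LCL cow and cow 489215 below. FLT1 relative to the reference had -0.73, -0.42 and -0.63 in LF/LCL and -0.28, -1.96 and -0.23 in SF/SCL. Its difference of -0.23 (exact permutation p = 1, adjusted p = 1) was 0.34 without cow 489215, -0.14 without LF/LCL cow 79, -0.50 without SF/SCL cow 856 and -0.53 without SF/SCL cow 97. For FLT4 the values were -2.46, -1.45 and -1.19 in LF/LCL and -1.46, -5.17 and -1.79 in SF/SCL, a difference of -1.11 (exact permutation p = 0.5, adjusted p = 0.686) that was 0.07 without cow 489215 and -1.78 without SF/SCL cow 856. For TEK they were 0.15, 0.25 and 0.24 in LF/LCL and 0.69, 0.11 and 0.29 in SF/SCL, a difference of 0.15 (exact permutation p = 0.6, adjusted p = 0.686). The differences for KDR and TEK were 0.49 and 0.28 without cow 489215, and turned to -0.03 and -0.02 without SF/SCL cow 856.

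**Figure D4:**
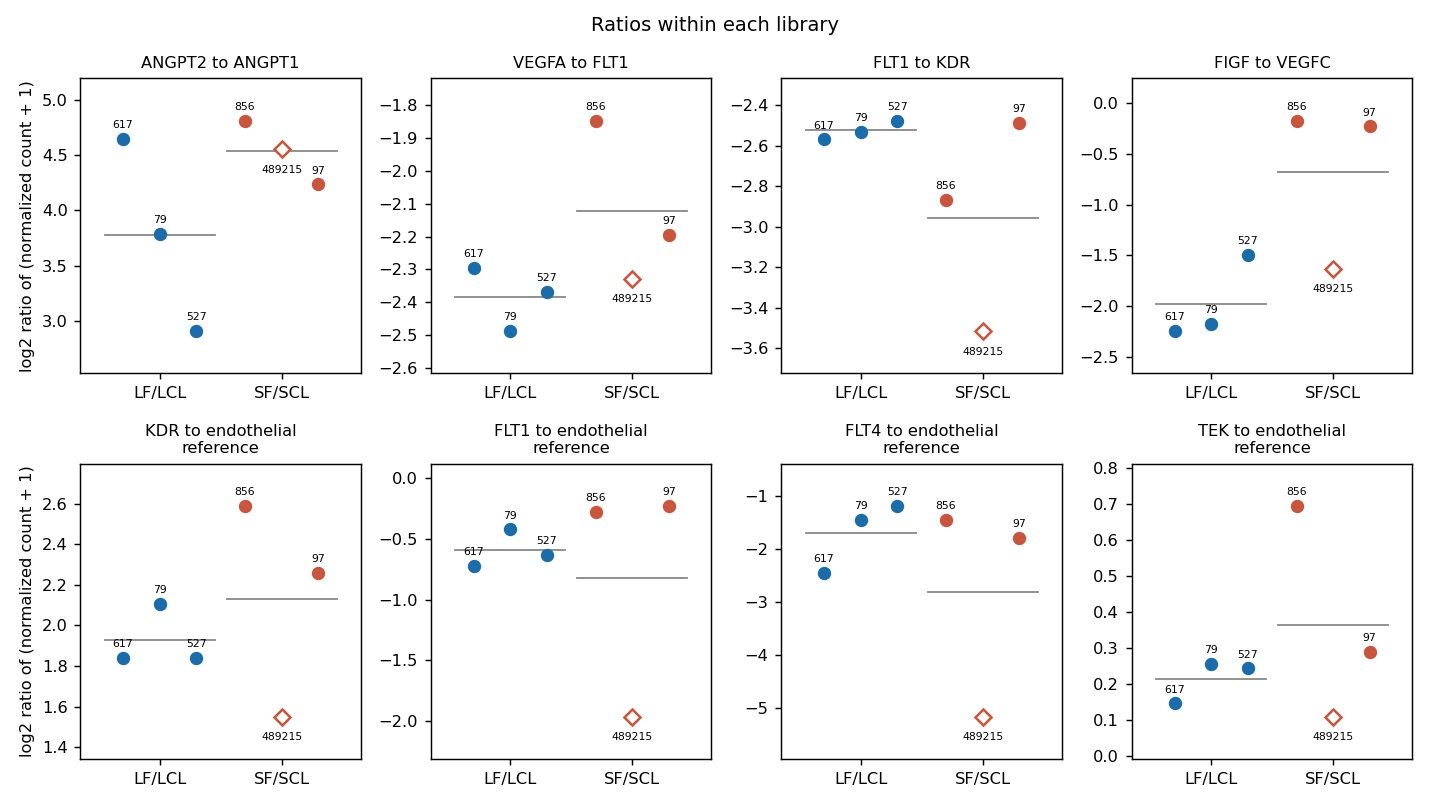
Log2 ratios of (normalized count + 1) within each library (a separate linear range in each panel), with LF/LCL in blue, SF/SCL in red, cow 489215 as an open diamond and group means as lines; the endothelial reference is the mean log2 of CDH5, TIE1, ESAM and EMCN. The groups overlap in every panel, and in 5 of the 8 (VEGFA to FLT1, FIGF to VEGFC, and KDR, FLT1 and TEK to reference) cows 856 and 97 lie above all LF/LCL cows while cow 489215 does not.

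Genes that act with the members were described by lists of their roles. The co-receptors and further ligands leaned toward LF/LCL: 9 of 11 listed genes were analysed, all 9 had negative log2 fold changes (median -0.75, or -0.91 without cow 489215), and 3 were lower at an unadjusted p under 0.05 (4.48% of all genes) and 0 higher. For 4 of the 9 the groups did not overlap, all with the lower values in SF/SCL (8.60% of all genes). NRP2, the neuropilin that binds VEGFC with FLT4, had 7605, 8220 and 7844 normalized counts in LF/LCL cows 617, 79 and 527 and 4053, 1464 and 4331 in SF/SCL cows 856, 489215 and 97 (log2 fold change -1.42, SE 0.42, limma adjusted p = 0.433). NRP1, which binds VEGFA with KDR, had 1460, 1888 and 1378 in LF/LCL and 980, 383 and 972 in SF/SCL (-1.12, SE 0.40, adjusted p = 0.499). Every SF/SCL cow was below every LF/LCL cow for both neuropilins, with cow 489215 the lowest.

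The syndecan SDC1, a heparan sulfate carrier, had 3274, 3096 and 3153 in LF/LCL and 656, 2873 and 1303 in SF/SCL (log2 fold change -1.23, SE 0.50, limma adjusted p = 0.568). The integrin subunit ITGAV was lower in each SF/SCL cow too (-1.12, adjusted p = 0.648), and ITGB1, the most abundant of the list, had a log2 fold change of -0.73. Without cow 489215, 8 of these 9 genes were called lower and 0 higher by limma at an adjusted p under 0.05 (7.92% and 10.3% of all genes), among them NRP2 (-0.91, adjusted p = 0.00261), NRP1 (-0.68, adjusted p = 0.0282), SDC1 (-1.78, adjusted p = 0.00863), ITGAV (-0.44, adjusted p = 0.0328) and ITGB1 (-1.03, adjusted p = 0.0492). Without SF/SCL cow 856, SDC1 was -0.71, and without SF/SCL cow 97, ITGB1 was -0.45. Neuropilins, syndecans and integrins are also made by stromal, epithelial and muscle cells, whose markers differed between the cows as given above, and that part was not tested.

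Signalling downstream of the VEGF receptors showed no call. Of 37 listed kinases, adaptors and targets, all were tested, 26 had negative and 11 positive log2 fold changes (median -0.23, or -0.07 without cow 489215), and 0 had an unadjusted p under 0.05 (8.66% of all genes). The groups did not overlap for 3 genes (18.1% of all genes), fewer than that share of 37. GRB7, an adaptor, had 574, 436 and 559 normalized counts in LF/LCL and 817, 591 and 741 in SF/SCL (log2 fold change 0.45, SE 0.23, limma adjusted p = 0.662). The focal adhesion kinase PTK2 was 0.16 higher and the kinase MAPKAPK2 -0.31 lower on the log2 scale. HSPB1, the small heat shock protein that MAPKAPK2 phosphorylates and the most abundant of the list, had 66062 in cow 489215 against 18262 to 31715 in the other 5 cows, with a log2 fold change of 0.15. This turned to -0.45 without cow 489215 and to -0.06 without LF/LCL cow 527, and HSPB1 reached 0.47 without SF/SCL cow 856, 0.42 without SF/SCL cow 97 and 0.29 without LF/LCL cow 617. Without cow 489215, 4 of the 37 were called lower and 2 higher at an adjusted p under 0.05, against 7.92% and 10.3% of all genes.

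The phosphatases and other brakes on the receptors held 1 gene at an unadjusted p under 0.05 among 15 of 16 tested (8.66% of all genes), with a median log2 fold change of -0.42. Without cow 489215 the median was -0.15, and 1 gene was called lower and 3 higher at an adjusted p under 0.05 (7.92% and 10.3% of all genes). The gene called with all cows was PTPRB, the endothelial phosphatase that dephosphorylates TEK, with 1476, 1821 and 1511 normalized counts in LF/LCL cows 617, 79 and 527 and 1154, 718 and 1200 in SF/SCL cows 856, 489215 and 97 (log2 fold change -0.68, SE 0.25, limma adjusted p = 0.519), or -0.44 without cow 489215. All SF/SCL cows were below all LF/LCL cows. The same held (8.60% of all genes) for PTPN1 (-0.48) and SPRED2 (-0.81), and the reverse (9.51%) for PTPN6 (0.34). Without cow 489215 these were -0.18, -0.24 and 0.45. CAV1, the caveolar coat protein and most abundant of the list, had 58160, 53669 and 45632 in LF/LCL and 20554, 71486 and 20936 in SF/SCL, and cow 489215 was highest as in the smooth muscle markers. SPRY4, an inhibitor of the MAP kinase pathway that was left out by the filter and is named after its values were seen, had 228, 302 and 209 in LF/LCL and 703, 37.3 and 1853 in SF/SCL.

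Of the 11 oxygen-sensing genes upstream of VEGFA all were tested, and 0 had an unadjusted p under 0.05 (8.66% of all genes), with 6 negative and 5 positive log2 fold changes and a median of -0.02, or 0.03 without cow 489215. Without that cow limma called 1 lower (EPAS1, -0.20 with all cows and -0.58 without) and 2 higher (HIF1A and ARNT2, the latter 0.06 with all cows and 1.32 without) at an adjusted p under 0.05 (7.92% and 10.3% of all genes). HIF1A, the oxygen-regulated subunit and the most abundant, had 7558, 7498 and 8191 normalized counts in LF/LCL and 9380, 5279 and 10699 in SF/SCL. Its log2 fold change of 0.06 (SE 0.29, limma adjusted p = 0.966) was 0.37 (adjusted p = 0.0448) without cow 489215, and it was -0.04 without cow 856 and -0.14 without cow 97. LF/LCL and SF/SCL values were apart in 2 of the 11 (18.1% of all genes), namely HIF1AN, the hydroxylase that inhibits HIF1A (-0.39, adjusted p = 0.64), and ARNT, the partner of HIF1A (-0.54), both lower in SF/SCL. Without cow 489215 they were -0.26 and -0.17.

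**Figure D5:**
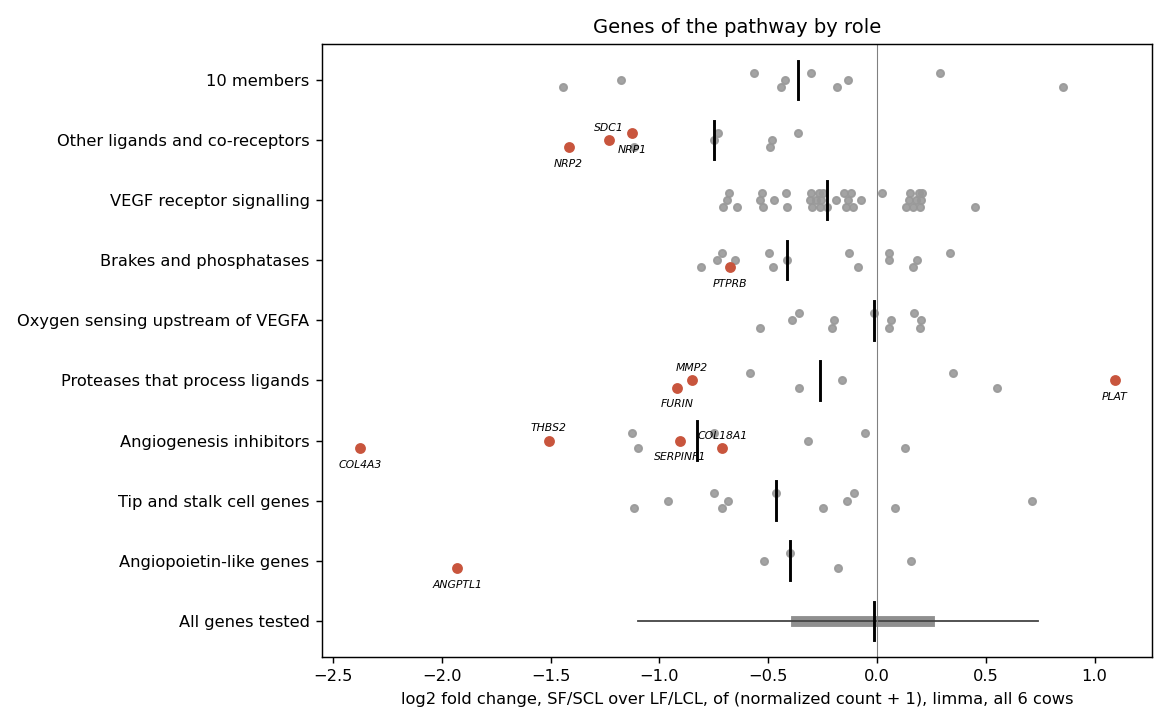
Log2 fold change, SF/SCL over LF/LCL, from limma with all 6 cows, of the 10 members and of the tested genes of each list (points, red and named at an unadjusted p under 0.05; vertical position within a row is only for legibility), with the median of each list as a black bar. The bottom row gives all 15387 genes tested, with the middle 50% as a thick bar (-0.37 to 0.24), the 5th to 95th percentile as a thin line (-1.10 to 0.74) and the median of -0.02.

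The proteases that process the ligands held the smallest p-value of any list gene. PLAT, the tissue plasminogen activator, had 1939, 1550 and 1465 normalized counts in LF/LCL cows 617, 79 and 527 and 3682, 2954 and 3930 in SF/SCL cows 856, 489215 and 97. Every SF/SCL cow was above every LF/LCL cow, with a log2 fold change of 1.09 (SE 0.20, limma adjusted p = 0.351), or 1.21 (adjusted p = 0.00395) without cow 489215. The gelatinase MMP2 had 10524, 11121 and 14848 in LF/LCL and 5327, 8707 and 6395 in SF/SCL (-0.85, SE 0.25, adjusted p = 0.433). FURIN, a proprotein convertase that cuts VEGFC and FIGF, had 2986, 3010 and 3543 in LF/LCL and 2289, 933 and 2207 in SF/SCL (-0.92, SE 0.37, adjusted p = 0.555). In all, 8 of the 10 listed proteases and cofactors were tested, and 2 were lower and 1 was higher at an unadjusted p under 0.05 (4.48% and 4.19% of all genes), with a median of -0.26. Without cow 489215 the median turned to 0.02, and 2 were called lower and 2 higher at an adjusted p under 0.05 (7.92% and 10.3% of all genes), with FURIN at -0.50 and MMP2 at -1.04.

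Angiogenesis inhibitors also leaned toward LF/LCL. Of 11 listed genes 10 were tested, 9 had negative log2 fold changes (median -0.83, or -0.62 without cow 489215), and 4 were lower at an unadjusted p under 0.05 (4.48% of all genes) and 0 higher. COL18A1, whose protein is the source of endostatin, had 9088, 7829 and 8710 normalized counts in LF/LCL cows 617, 79 and 527 and 5624, 5110 and 4908 in SF/SCL cows 856, 489215 and 97 (log2 fold change -0.71, SE 0.16, limma adjusted p = 0.381). It was -0.70 (adjusted p = 0.00959) without cow 489215, so that cow had little weight in this gene. COL4A3, the source of tumstatin, had 170, 154 and 149 in LF/LCL and 66.1, 6.66 and 54.2 in SF/SCL (-2.38, SE 0.84, adjusted p = 0.496). THBS2, a thrombospondin, had 396, 664 and 293 in LF/LCL and 245, 67.9 and 197 in SF/SCL (-1.51, adjusted p = 0.515). The remaining gene at this threshold was SERPINF1 (-0.91, adjusted p = 0.482), whose groups overlapped slightly. VASH2 (-1.10) did not overlap between the groups, and TIMP3, the most abundant, stood at -0.06 on the log2 scale, turning to 0.17 without cow 489215 and to 0.08 without LF/LCL cow 79, against -0.23 without SF/SCL cow 856. Without cow 489215 limma called 3 of the 10 lower at an adjusted p under 0.05 (COL18A1, COL4A3 and SERPINF1) and 0 higher, against 7.92% and 10.3% of all genes. COL4A3 was then -1.38, THBS2 -0.95, VASH1 -0.48 and VASH2 -0.53. Several of these proteins belong to the matrix, and the fibroblast markers given above had lower values in SF/SCL, a part that was not tested.

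Genes of tip and stalk cells, which lead and trail a growing vessel, had a median log2 fold change of -0.47 (-0.44 without cow 489215) over 11 tested genes, with 0 at an unadjusted p under 0.05 (8.66% of all genes). Without cow 489215, 3 were called lower and 2 higher by limma at an adjusted p under 0.05 (7.92% and 10.3% of all genes). HEY1, a Notch target, had 889, 512 and 563 normalized counts in LF/LCL and 352, 482 and 362 in SF/SCL (log2 fold change -0.69, SE 0.29, limma adjusted p = 0.588). HEY1 was -0.44 without LF/LCL cow 617 and -0.83 without cow 489215. JAG1, the most abundant, had -0.14, within -0.24 (without LF/LCL cow 617) and -0.05 (without LF/LCL cow 79). ESM1, a tip cell gene induced by VEGFA in endothelium, was left out by the filter because its SD exceeded its mean, and it is named after its values were seen. It had 92.1, 64.8 and 33.4 in LF/LCL cows 617, 79 and 527 and 2140, 55.9 and 1848 in SF/SCL cows 856, 489215 and 97. ESM1 was thus high in the same cows, 856 and 97, as OVGP1, MSLN and the ciliated-cell markers, and cow 489215 was within the LF/LCL range.

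Angiopoietin-like genes, whose proteins resemble angiopoietins but do not bind TEK, were tested for 5 identifiers, with 1 lower and 0 higher at an unadjusted p under 0.05 (4.48% and 4.19% of all genes) and a median log2 fold change of -0.40, or -0.72 without cow 489215, where 1 was called lower and 0 higher at an adjusted p under 0.05 (7.92% and 10.3% of all genes). ANGPTL1 had 260, 589 and 334 normalized counts in LF/LCL cows 617, 79 and 527 and 48.6, 134 and 138 in SF/SCL cows 856, 489215 and 97 (log2 fold change -1.93, SE 0.53, limma adjusted p = 0.405). All SF/SCL cows were below all LF/LCL cows, and the value was -2.17 (adjusted p = 0.0339) without cow 489215. ANGPTL2, the most abundant, had -0.40, or -0.25 without LF/LCL cow 79. The symbol ANGPTL4 was listed for 2 identifiers, ENSBTAG00000002473 (log2 fold change 0.15, or -0.10 without cow 489215) and ENSBTAG00000021811 (-0.52, SE 0.34, adjusted p = 0.764). The latter had 699, 680 and 1038 normalized counts in LF/LCL and 367, 787 and 578 in SF/SCL. The study's own supplement of qPCR results gives the same identifier the name ANGPT4, a ligand of TEK. Which name is right could not be settled here, and the identifier is counted among the 5 above although, as ANGPT4, it would not belong to them.

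Pericytes and other mural cells, which surround endothelium and make ANGPT1, had lower values in SF/SCL by part of their markers. All 7 markers were tested, none was at 0, MCAM was the most abundant, and 3 were lower and 0 higher at an unadjusted p under 0.05 (4.48% and 4.19% of all genes), with a median log2 fold change of -0.59, or -0.88 without cow 489215, where 4 were called lower and 0 higher at an adjusted p under 0.05 (7.92% and 10.3% of all genes). The sums were 20236, 20228 and 21534 normalized counts in LF/LCL cows 617, 79 and 527 and 12525, 18529 and 14408 in SF/SCL cows 856, 489215 and 97. PDGFRB, the growth factor receptor of pericytes, had 2879, 4289 and 4739 in LF/LCL and 1986, 909 and 2244 in SF/SCL (log2 fold change -1.28, SE 0.39, limma adjusted p = 0.437). RGS5 (-0.89, adjusted p = 0.42) and ABCC9 (-1.20, adjusted p = 0.405) did not overlap between the groups either (8.60% of all genes, lower in SF/SCL). The part of mural cells in the values of ANGPT1 was not tested.

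Genes with the most similar profiles over the 6 cows were found for each member as the smallest root mean square difference of centred log2 values. For ANGPT2 they were THY1 (0.06), CD248 (0.07) and PRUNE2 (0.09), against an SD of 0.35 for ANGPT2 itself over the 6 cows. For VEGFC they were PRRX2 (0.09), GPR4 (0.10) and ODC1 (0.11), and for FIGF CDR2 (0.14), TTC6 (0.16) and ENSBTAG00000047227 (0.18). For VEGFA they were FBXO28 (0.04), SKIL (0.06) and KIAA0947 (0.07), and for VEGFB SCAMP3 (0.01), ENSBTAG00000047432 (0.02) and POMP (0.04). For KDR they were C1D (0.05), PLCL2 (0.07) and PAK7 (0.07), for FLT1 USPL1 (0.09), MYRIP (0.11) and ENSBTAG00000046608 (0.12), and for TEK GCH1 (0.03), LYRM2 (0.05) and RPS6KB2 (0.06). For ANGPT1 they were HFM1 (0.23), MMP17 (0.24) and LRP1B (0.25). No member was among the 3 closest genes of another member. With 6 cows and 15387 genes, small differences of this kind are common, and they are given as a description of the profiles.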

How the data were processed

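RNA-seq was read from 6 isthmus libraries. The authors cleaned reads, mapped them to a masked Bos taurus assembly (UMD 3.1) with TopHat 2.0.8 and Bowtie2 2.1.0, counted reads per gene with HTSeq 0.5.4p2 and divided the counts by DESeq 1.12.1 size factors. The deposited signal values are these quotients; use of strand is not given in the sources used here. Divided by the smallest step of its library, 100% of values were whole (tolerance 0.01 read), which gave back the reads, 23899117 to 34193164 per library. Intervals from reads cover counting error only.

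SF/SCL was compared with LF/LCL on log2(value + 1) by the lmFit and eBayes functions (trend and robust options on) of limma 3.58.1 under R 4.3.3, for genes whose mean exceeded 5 and exceeded the SD, with Benjamini-Hochberg adjustment over all 15387 genes. Ratios were tested with the exact permutation test over 10 divisions in Python 3.11.15 (numpy 2.4.6, pandas 2.3.3, scipy 1.17.1), and plots used matplotlib 3.10.9. Alternatives were edgeR 4.0.16 and DESeq2 1.42.0 on the recovered reads, TMM rescaling, a pseudocount of 5, other filters, array weights, and leaving out each cow; for ratios only the pseudocount, leaving out each cow and the full endothelial list as reference. The tests were tried on simulated counts first.

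The members and lists were chosen with earlier results of these data known. Named genes were all members, and from each list the gene with the highest mean and up to 4 genes with the smallest p among those whose groups did not overlap, with the 3 tested genes closest in profile to each member; others are said to be chosen later or complete a count or list. Symbols are those of the table. In the RefSeq gene table of assembly NIAB-ARS the symbols of the members were found, FIGF as VEGFD; no positions are given because the builds differ.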

Additional observations from a re-analysis of the deposited data

How the results depend on the processing

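Alternatives were edgeR and DESeq2 on recovered reads, limma on TMM-rescaled values, a pseudocount of 5, a filter on the mean alone, no filter, array weights (their estimate stopped before its tolerance was reached), and leaving out each cow. Of 130 values for the 10 members, 121 kept direction and side of the threshold, 4 passed it and 5 changed direction. Of 689 values for 53 other named genes, 598 kept both, 79 passed and 12 changed direction. Ratios were run only with a pseudocount of 5, without each cow and, for the 4 set against endothelium, with the full endothelial list as reference, and of these 60 values 4 changed direction.

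DESeq2 called 409 genes at an adjusted p under 0.05, and 1 member at an unadjusted p under 0.05. With array weights these were 4581 genes (6528 unadjusted) and 4 members (6 unadjusted), and log2 fold changes turned for VEGFA (0.0013), VEGFB (-0.14), HSPB1 (-0.45) and AHSP (-0.17).

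Leaving out each cow gave 0 to 2827 genes adjusted, 605 to 5253 unadjusted, 0 to 3 members unadjusted, and 1 to 4 members whose groups did not overlap. Log2 fold changes that turned ranged from -0.56 to 0.13 for VEGFA, -0.0768 to 0.52 for VEGFB, -0.24 to 0.0133 for KDR, -0.45 to 0.47 for HSPB1, -0.14 to 0.37 for HIF1A, -0.23 to 0.17 for TIMP3, -0.46 to 0.10 for LYVE1 and -0.29 to 0.73 for AHSP. The log2 ratio KDR to endothelial reference ranged from -0.0265 to 0.49, the log2 ratio FLT1 to endothelial reference from -0.53 to 0.34, the log2 ratio FLT4 to endothelial reference from -1.78 to 0.0744 and the log2 ratio TEK to endothelial reference from -0.0158 to 0.28. The causes were not tested. With 3 cows per group and extremes of each group sequenced, an adjusted p above the threshold does not show that values were equal, and the 6 to 41 reads of ANGPT1 limit its precision. Without 1 cow of a group, limma pools the spread of the remaining cows over both groups.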
